A study of Sus scrofa with 6 samples.

Results

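The mRNAs of the cytosolic ribosomal proteins were measured in scrapings of the epithelial layer from both uterine horns of 3 sows. Each horn was read on 1 Affymetrix porcine array. A probe set, the group of probes that reads 1 transcript, was taken as a member when its single gene symbol in the array annotation was RPL or RPS with a number, RPLP0, RPLP1, RPLP2 or RPSA, and kinases of the RPS6K kind were left out. This gave 96 of the 23999 probe sets tested. They stand for 64 genes, of which 40 had 1 probe set, 16 had 2 and 8 had 3. Of these genes 34 code for standard proteins of the large (60S) subunit and 24 for standard proteins of the small (40S) subunit, 58 of the 79 in a list of standard genes. A further 4 are paralogues (RPL22L1, RPL26L1, RPL36AL, RPS27L). RPL7L1 and RPS19BP1 carry a matching symbol without being standard ribosomal proteins.

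The arrays came from weaned Landrace x Large White sows. In each sow 1 oviduct received spermatozoa by laparoscopy and its uterine horn held embryos at the blastocyst stage on day 6, while the opposite oviduct received diluent only and its horn held oocytes. The groups are 3 arrays from horns with embryos and 3 arrays from horns with oocytes, and both horns of a sow share its genotype and its surgery. The horn was scraped over its first 10 cm next to the utero-tubal junction per the sample labels, so the material is a bulk sample in which fewer cells of a type and less RNA per cell cannot be told apart.

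A ribosome joins a small subunit, which decodes the mRNA, to a large subunit, which forms the peptide bond. Each subunit is built on ribosomal RNA and holds 1 copy of most of its proteins, so cells make these proteins in matched amounts. Their mRNAs are among the most abundant in most cells and begin with a 5′ terminal oligopyrimidine (TOP) tract, through which the mTORC1 pathway sets their translation together. Arrays read mRNA amounts and not translation.

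The signals of the members fell into a bright and a dim set. A total of 60 probe sets from 56 genes had a mean log2 signal of at least 10, a limit placed after the values were seen, in a gap between 9.13 (RPS27L) and 10.47 (RPL22L1). Their deposited signals ran from 1179.9 to 8561.5 arbitrary units. The other 36 probe sets had signals from 0.8 to 622.2, and 19 of them lay above the array median. In 22 genes a bright probe set stood beside dim ones of the same gene, 28 dim probe sets in all, so a dim signal here did not mean that the gene's other probe set was dim. Only 8 genes had no bright probe set, RPL26, RPL26L1, RPL30, RPL37, RPL7L1, RPS15A, RPS19BP1 and RPS27L.

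The scrapings carried epithelial markers. The 12 probe sets of 8 epithelial genes summed to 8168 to 10925 with embryos and 8461 to 10787 with oocytes, and those of 6 leukocyte genes to 96.5 to 125 with embryos and 87.5 to 173 with oocytes. Smooth muscle genes summed to 573 to 1370 with embryos and 462 to 2141 with oocytes, and stromal genes to 1988 to 4325 with embryos and 2123 to 4387 with oocytes. No probe set of these lists passed an adjusted p of 0.05. The 5′ to 3′ signal ratio of the GAPDH control, which falls when RNA or its copy is short, was 0.243, 0.130 and 0.199 with embryos in sows 1, 2 and 3 and 0.355, 0.200 and 0.226 with oocytes. It was lower with embryos in every sow. Averaged with actin on the log2 scale the ratio was -2.39, -3.53 and -2.80 with embryos and -1.84, -2.78 and -2.61 with oocytes, again lower in every sow. The mean was lower by 0.49 with embryos (two-sided exact permutation p = 0.4, the smallest possible being 0.1). This permutation left out the pairing by sow, so its p does not weigh the agreement between sows. The part of the ratio in the results below was not tested.

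No ribosomal protein probe set passed the test between horns with embryos and horns with oocytes. At an adjusted p of 0.05 limma called 0 of the 96 members and 0 of all 23999 probe sets (0%), where the smallest adjusted p was 1.00. With the sow as a block limma called 0 of either, and the smallest adjusted p was 0.471 among the members and 0.081 over all probe sets. Without the block, at an unadjusted p under 0.05, the fit held 1 member that was higher with embryos, against 1.3% of all probe sets, and 0 that were lower, against 1.59%. With the sow as a block it held 2 that were higher (dim probe sets of RPL9 and RPLP1), against 3.75%, and 0 that were lower, against 4.95%. These shares lay near or under those of the whole array.

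The bright members moved very little. Over the 60 bright probe sets the log2 fold change of embryos over oocytes had a median of 0.01 and quartiles of -0.03 and 0.03, and it ran from -0.14 (RPL11) to 0.14 (RPLP1), which is 0.905-fold to 1.10-fold. A total of 36 were above 0 and 24 below. The 95% interval of each of the 60 lay within 0.5 on either side of 0, a change of 1.41-fold, with the outermost bounds of -0.44 and 0.41 at RPLP2. Standard errors and intervals in the text are from the fit without the block, unless the block is named. For the bright set the standard errors ran from 0.09 to 0.19, and from 0.07 to 0.09 with the sow as a block. The 33 bright probe sets of 60S genes had a median of 0.003 and the 25 of 40S genes a median of 0.016. All 60 were within 0.15 of 0. Of the 479 other probe sets with a mean log2 signal of at least 10, 91.0% were, with a median of 0.01 and a range of -0.68 to 0.30. The 479 were not matched to the bright members in signal above that limit, so equally bright probe sets were not compared. Over all 96 members the median was 0.02 and 75 were within 0.15 of 0 (78.1%). Among the 23999 tested the median was 0.01 and 9848 were within 0.15 of 0 (41.04%). The higher share of the members came from the bright set. Of the 36 dim members 15 were within 0.15 of 0 (41.67%), near the share of the whole array.

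The summed signal was compared as well. Summed over the 96 members, signal made up 7.59%, 7.35% and 7.52% of the array signal with embryos in sows 1, 2 and 3, and 7.54%, 7.51% and 7.48% with oocytes. The groups overlapped. Every array had been scaled to a common mean and was then normalized to the others, so a change in the ribosomal protein mRNA of a cell that came with an equal change in its other mRNA could not be seen.

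**Figure D1:**
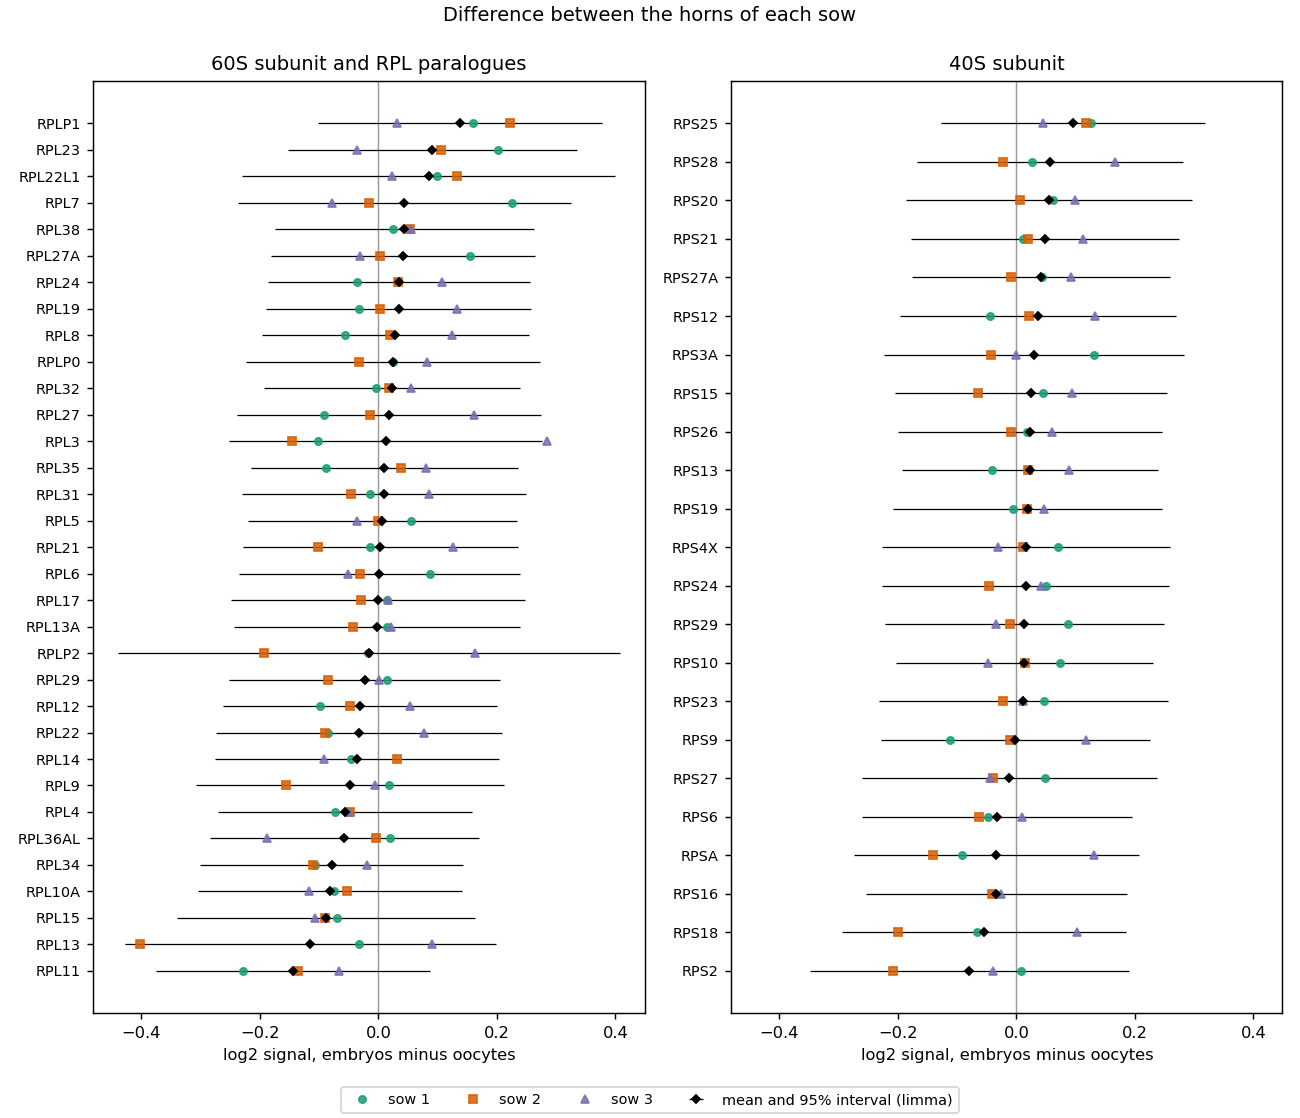
Log2 signal with embryos minus that with oocytes (x axis, after cyclic loess) for the brightest probe set of each of the 56 genes with a bright probe set, 60S genes and RPL paralogues on the left and 40S genes on the right, ordered by the mean. Coloured points are the 3 sows, black diamonds the mean and black lines the 95% interval from limma. All means lie between -0.14 and 0.14, and for most genes the sows stand on both sides of 0.

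Within single sows the medians of the bright members were small, and their signs depended on the normalization. After cyclic loess the median was 0.002 in sow 1, -0.02 in sow 2 and 0.04 in sow 3, with 30, 21 and 39 of the 60 above 0. With quantile normalization the medians were -0.013, 0.009 and 0.029, and with an equal median on each array -0.001, 0.040 and -0.033. After cyclic loess, in 48 of the 60 at least 1 sow lay above 0 and at least 1 below. Over all 96 members 11 were higher with embryos in all 3 sows, against 14.9% of all probe sets, and 12 were lower in all 3, against 14.8%. Of the bright members 6 were higher and 6 were lower in all 3 sows.

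The stalk of the large subunit, formed by RPLP0 and pairs of RPLP1 and RPLP2, recruits the translation factors. RPLP0 gave 7392.6, 6478.9 and 6595.0 with embryos in sows 1, 2 and 3, against 7221.5, 6682.5 and 6397.7 with oocytes. Its groups overlapped and the log2 fold change was 0.02 (standard error 0.11). RPLP1 gave 4478.6, 4318.2 and 3858.6 with embryos, against 3981.9, 3715.3 and 3865.0 with oocytes. It was the highest of the bright members, 0.14 (standard error 0.11, adjusted p = 1.00 from limma), with sows 1 and 2 above 0.15 and sow 3 at 0.03. RPLP2 gave 1294.2, 1506.2 and 2018.6 with embryos, against 1300.3, 1719.0 and 1834.4 with oocytes. Both horns of sow 1 were low and both horns of sow 3 were high, and the log2 fold change was -0.02 (standard error 0.19).

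RPL5 and RPL11 travel with the 5S ribosomal RNA and, in human cells, bind MDM2 and so stabilize p53 when ribosome assembly fails. RPL5 gave 5597.9, 5164.9 and 5247.0 with embryos, against 5352.6, 5196.9 and 5517.5 with oocytes, and did not differ beyond its spread (log2 fold change 0.01, standard error 0.10). RPL11 gave 5314.1, 5324.7 and 5721.7 with embryos, against 6185.0, 5887.6 and 6149.5 with oocytes. It was the lowest of the bright members, at -0.14 (standard error 0.10, adjusted p = 1.00 from limma), with -0.23, -0.14 and -0.07 in sows 1, 2 and 3. With the sow as a block its standard error was 0.07 (unadjusted p = 0.0670 from limma). In the deposited signals all its embryo arrays lay below all its oocyte arrays, and after normalization the groups overlapped.

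Such separation was seen in the deposited signals of 5 members with embryos below oocytes (RPL10A, RPL11, RPL34, RPL4 and a dim probe set of RPS25), against 3.35% of all probe sets, and of 1 member with embryos above oocytes (a dim probe set of RPL9), against 3.98%. Among these RPL10A was at -0.08 and RPL11 at -0.14, and the dim RPS25 and RPL9 probe sets, given below, moved more. RPL4, a protein that lines the exit tunnel of the large subunit, moved less. Its probe set gave 4338.6, 4319.2 and 4266.2 with embryos, against 4534.4, 4483.0 and 4523.1 with oocytes, a log2 fold change of -0.06 (standard error 0.09). RPL4 was singled out after its values were seen. After normalization 2 members, RPL4 and the RPS25 probe set, had all embryo arrays below all oocyte arrays, against 3.98% of all probe sets, and 1 (RPL9) had all above, against 4.03%.

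The other large subunit genes named by the rule follow. RPL3, which reaches towards the peptidyl transferase centre, gave 3269.3, 3466.0 and 3816.6 with embryos, against 3483.5, 3845.9 and 3207.0 with oocytes. Its log2 fold change was 0.01 (standard error 0.12), with sow 3 at 0.28 and sows 1 and 2 below 0. RPL13A, which in human monocytes can leave the ribosome to silence inflammatory mRNAs, was at -0.002 (standard error 0.11) for its bright probe set. RPL23, on the face of the large subunit that meets the small one, gave 3937.0, 3743.8 and 3250.3 with embryos and 3399.3, 3487.4 and 3407.7 with oocytes for its bright probe set, a log2 fold change of 0.09 (standard error 0.11). RPL26 was read only by a dim probe set, with signals of 15.5, 18.9 and 24.7 with embryos and 19.5, 22.0 and 24.1 with oocytes, and its change of -0.19 had a standard error of 0.34. The lowest single value of a bright member in any sow was RPL13 in sow 2, at -0.40, with 1810.0 in the horn with embryos and 2390.6 in the horn with oocytes. RPL13 stood at -0.03 in sow 1 and 0.09 in sow 3.

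In the small subunit RPS6, the substrate of the S6 kinases downstream of mTORC1, gave 5180.5, 5172.8 and 4796.6 with embryos, against 5316.6, 5432.0 and 4886.1 with oocytes, a log2 fold change of -0.03 (standard error 0.10). RPSA, also known as a laminin receptor at the cell surface, gave 5460.5, 5092.8 and 5536.3 with embryos and 5781.6, 5646.0 and 5184.0 with oocytes. Its change was -0.03 (standard error 0.11), with sows 1 and 2 below 0 and sow 3 above. RPS19, which is often mutated in Diamond-Blackfan anaemia in humans, had nearly equal horns in every sow, 7086.5, 6658.7 and 6603.0 with embryos against 7068.6, 6632.8 and 6567.1 with oocytes. RPS27A, made as a fusion with ubiquitin, gave 5914.9, 5683.6 and 5833.7 with embryos and 5703.3, 5759.7 and 5617.6 with oocytes, a change of 0.04 (standard error 0.10). RPS25, which some viral messages need to recruit the small subunit in human cells, was the highest bright 40S probe set, with 3894.1, 3957.0 and 3974.2 with embryos and 3545.1, 3660.9 and 3943.6 with oocytes. It was above 0 in all 3 sows, and its log2 fold change of 0.10 had a standard error of 0.10 (adjusted p = 1.00 from limma).

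The paralogues, which can stand in for a standard protein in some ribosomes, differed by less than their standard errors in the fit without the block. RPL22L1 gave 1272.6, 1702.4 and 1429.3 with embryos, against 1179.9, 1548.6 and 1429.7 with oocytes, a log2 fold change of 0.08 (standard error 0.14). With the sow as a block the standard error of RPL22L1 was 0.07, under its change (unadjusted p = 0.241 from limma). RPL22 itself was at -0.03 (standard error 0.11). RPL26L1 gave 415.6, 416.6 and 441.1 with embryos and 426.5, 430.4 and 439.9 with oocytes, the narrowest spread of the dim members in relative terms with a log2 range of 0.10. RPS27L, a target of p53 in human cells, gave 519.0, 622.2 and 561.7 with embryos and 485.5, 560.2 and 619.4 with oocytes, a change of 0.03 (standard error 0.12). RPL36AL was at -0.06 (standard error 0.10).

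The dim probe sets varied more and were measured less precisely. The log2 fold changes of the 36 ran from -0.85 (RPS12) to 2.13 (RPL9), with a median of 0.08 and quartiles of -0.15 and 0.21, and only 4 of their 95% intervals lay within 0.5 of 0, against all 60 of the bright set. Standard errors reached 0.94 at RPL30, whose signals were 11.7, 24.8 and 7.1 with embryos and 2.7, 2.1 and 20.2 with oocytes. The highest member was a dim probe set of RPL9, singled out after its values were seen, with 21.1, 12.9 and 15.2 with embryos and 1.0, 4.5 and 10.4 with oocytes. Its groups did not overlap and it was the member with an unadjusted p under 0.05 (log2 fold change 2.13, standard error 0.85, unadjusted p = 0.0349 and adjusted p = 1.00 from limma). Without the oocyte array of sow 1 the change was 1.15 (unadjusted p = 0.0715 from limma). Without the embryo array of sow 1, 2 or 3 the unadjusted p was 0.0840, 0.0622 and 0.0727. The other probe sets of RPL9 lay below 0. The bright one gave 6676.1, 5657.7 and 5648.8 with embryos and 6553.0, 6349.4 and 5818.0 with oocytes, a change of -0.05 (standard error 0.11), and the third was at -0.22 (standard error 0.20).

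**Figure D2:**
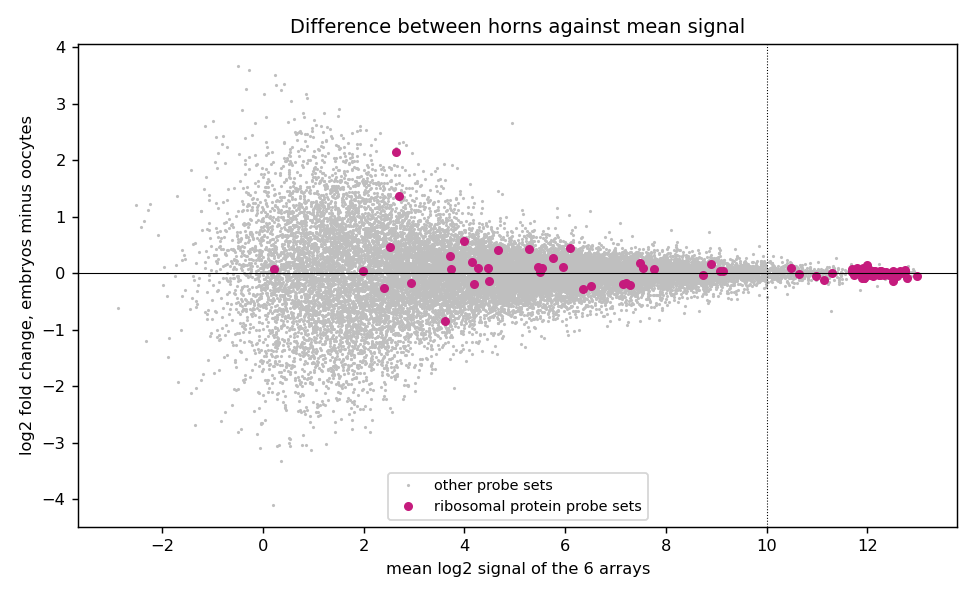
Log2 fold change of embryos over oocytes (y axis) against the mean log2 signal over the 6 arrays (x axis) for the 96 ribosomal protein probe sets over all probe sets tested. The 60 members of at least 10 lie within 0.15 of 0, and the spread widens toward dim signals, up to 2.13 at RPL9.

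In the 4 genes whose probe sets above the array median differed most, a dim probe set stood apart from a bright one. For RPL17 the dim probe set was at 0.42 (standard error 0.32), with 78.8, 29.7 and 45.7 with embryos and 34.5, 35.5 and 36.1 with oocytes. Its bright probe set was at -4.3e-05, with 7033.2, 6193.1 and 6128.5 with embryos and 6921.1, 6373.0 and 6221.5 with oocytes. For RPS25 the dim one was at -0.28 (standard error 0.17), with 67.5, 81.3 and 78.1 with embryos and 88.1, 89.9 and 95.5 with oocytes, opposite in sign to the bright one. For RPLP1 the dim one was at 0.45 (standard error 0.37), with 68.2, 84.9 and 93.5 with embryos and 32.4, 87.6 and 74.4 with oocytes. The low array was the oocyte horn of sow 1, without which the change was -0.002. For RPS6 the dim one was at 0.27 (standard error 0.22), with 71.3, 61.0 and 53.0 with embryos and 45.5, 60.9 and 46.9 with oocytes. Of the remaining dim probe sets with the smallest p values, an RPL38 probe set, whose protein is needed for the translation of Hox mRNAs in mouse embryos, was at 0.16 (standard error 0.14). The brighter of the dim RPL23 probe sets was at -0.18 (standard error 0.18), the dim RPS27A one at -0.22 (standard error 0.20), and RPS19BP1, a binding partner of RPS19, at -0.18 (standard error 0.16).

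Some dim members came in pairs with a bright one. In 8 genes (RPL6, RPS6, RPL13A, RPL17, RPL32, RPL23, RPL24 and RPL12) a bright and a dim probe set have names that differ only in the letter A or S, the bright one being A in 5 and S in 3. These pairs were picked out after the values were seen, so what follows is a description. In sow 1 the dim partner was higher with embryos in 8 of 8 pairs, with a median of 0.67 and a range of 0.22 to 1.16, whereas it was higher in 3 of 8 in sow 2 (median -0.07) and 6 of 8 in sow 3 (median 0.14). The bright partners had medians of 0.004, -0.03 and 0.02 in sows 1, 2 and 3. Among probe sets that were not members by symbol, 7 of 7 pairs of this kind had the dim partner higher with embryos in sow 1 (median 0.45). It was higher in 2 of 7 in sow 2 and 3 of 7 in sow 3. A pair among these had no gene symbol, and its dim partner was at 0.05 in sow 1. Of all probe sets tested 49.6%, 50.7% and 50.4% were higher with embryos in sows 1, 2 and 3. Of the 36 dim members, which include the 8 dim partners, 63.9%, 47.2% and 47.2% were, with a median of 0.19 in sow 1. The 28S ribosomal RNA control was also higher with embryos in sow 1 and lower in sows 2 and 3, with 381.6, 89.2 and 151.3 with embryos and 182.5, 149.8 and 163.4 with oocytes. The 18S control gave 424.3, 223.6 and 333.2 with embryos and 355.1, 257.9 and 236.4 with oocytes, higher with embryos in sows 1 and 3. The part of either in the pattern was not tested.

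**Figure D3:**
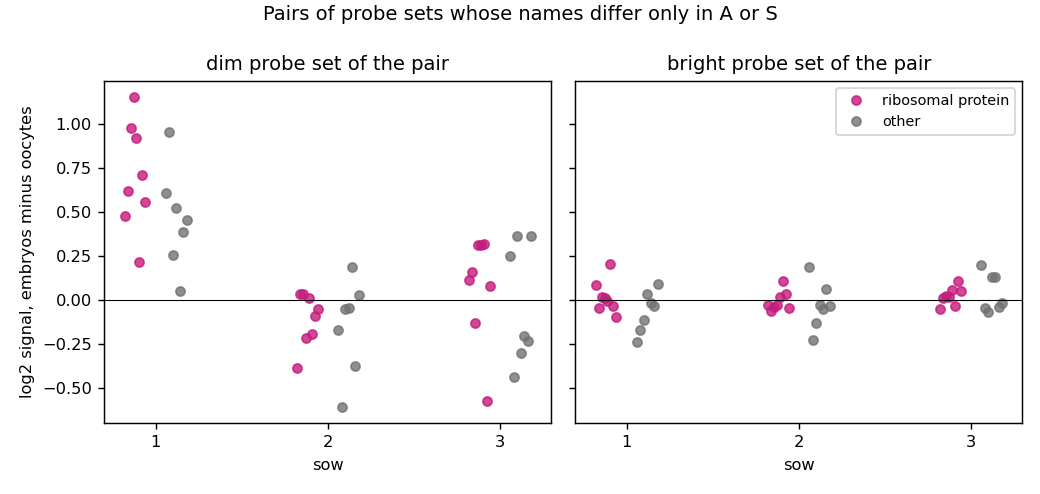
Log2 signal with embryos minus that with oocytes in each sow for the 8 ribosomal protein pairs and the 7 other pairs of a bright and a dim probe set whose names differ only in A or S. Dim partners lie above 0 in sow 1 in 8 of 8 and 7 of 7 pairs, and the bright partners spread less around 0.

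Differences between sows were tested as well. A test of the sow term in the fit with the sow as a block, added after the data were seen, called 3 of the 96 members at an adjusted p of 0.05, against 11.3% of all probe sets, and 1 of the 60 bright ones. The 3 were RPLP2 (adjusted p = 0.0169), a dim probe set of RPL12 (adjusted p = 0.0306) and a dim probe set of RPS27 (adjusted p = 0.00177), all from limma. This RPS27 probe set gave 156.9, 287.3 and 251.6 with embryos and 125.7, 283.4 and 273.3 with oocytes, with both horns of sow 1 low, while the bright RPS27 probe set gave 4236.1, 3748.8 and 4105.0 with embryos and 4070.2, 3865.7 and 4334.8 with oocytes. RPL22L1 (sow adjusted p = 0.0513) and an RPS18 probe set (sow adjusted p = 0.0767) came next among the bright members, and in both the horns of sow 1 were the lowest pair. This RPS18 probe set gave 2112.7, 2835.1 and 2631.9 with embryos and 2231.5, 2731.3 and 2565.0 with oocytes, while the sow adjusted p of its other probe sets was 0.882 and 0.854.

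**Figure D4:**
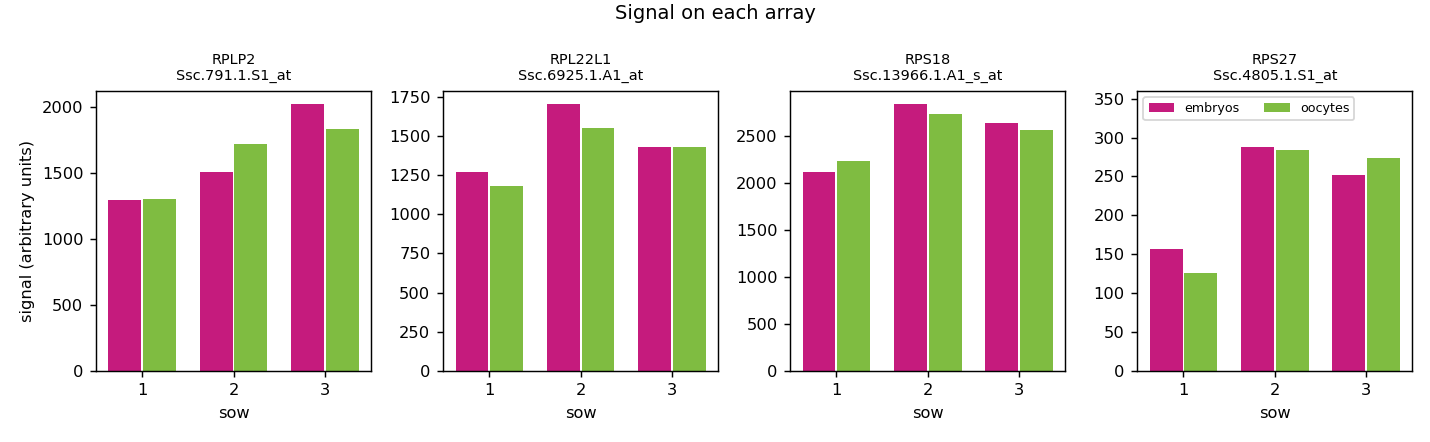
Deposited signal in arbitrary units (y axis, from 0) on each array for 4 members with large differences between sows, embryos left and oocytes right within each sow. In each the bars of a sow stand closer together than the bars of sow 1 and the highest sow, as in RPLP2, with 1294.2 and 1300.3 in sow 1 and 2018.6 and 1834.4 in sow 3.

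Genes that work with the ribosome were read beside the members. Counts at an unadjusted p under 0.05 in these lists are to be read against 1.3% higher and 1.59% lower over all probe sets, and with the sow as a block against 3.75% higher and 4.95% lower. Of the ribosomal proteins without such a symbol, FAU, the precursor of the small subunit protein RPS30, was at -0.04 (standard error 0.10) and RACK1, the scaffold on the head of the small subunit, was at 0.02 (standard error 0.10) at their brightest probe sets. The 7 probe sets of both had a median of -0.07, with 0 higher and 1 lower at an unadjusted p under 0.05, a dim FAU probe set, and likewise 0 and 1 with the block. Other mRNAs with a TOP tract, 16 genes of a list of 20 with 23 probe sets, had a median of -0.01, and 0 had an unadjusted p under 0.05, against 1 higher and 2 lower with the block. Of these EEF1G, a subunit of the elongation factor that recharges EEF1A1, gave 4111.6, 3630.3 and 3484.6 with embryos and 4563.6, 3992.1 and 3924.4 with oocytes. It was lower by a like amount in every sow (log2 fold change -0.14, standard error 0.12, adjusted p = 1.00 from limma, and unadjusted p = 0.0556 with the block in limma). PABPC1, the poly(A) binding protein, was at -0.16 (standard error 0.13), HNRNPA1, a nuclear RNA-binding protein, at 0.19 (standard error 0.16, unadjusted p = 0.0464 with the block in limma) and TPT1, the tumour protein TCTP, at 0.05 (standard error 0.11).

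The factors that build ribosomes had 42 of 52 symbols on the array, with 62 probe sets, a median of -0.05, and 3 higher and 2 lower at an unadjusted p under 0.05, and 4 higher and 5 lower with the block, none after adjustment in either fit. RRS1, which brings the 5S particle into the large subunit in yeast, gave 33.4, 25.5 and 17.5 with embryos and 44.0, 39.0 and 50.9 with oocytes. Its groups did not overlap (log2 fold change -0.86, standard error 0.30, unadjusted p = 0.0184 and adjusted p = 1.00 from limma). The mean log2 signals of RRS1 (4.95) and of NOC2L (5.32) lay near the array median of 4.93. NOC2L, whose yeast counterpart helps export the large subunit, was at 0.54 (standard error 0.23), and the nucleolar assembly factors NIP7 and NOP16 were at -0.46 (standard error 0.25) and -0.27 (standard error 0.16), with unadjusted p values of 0.00870 and 0.0431 with the block in limma. Mitochondrial ribosomal proteins, 58 genes with 77 probe sets, had a median of -0.01 and 0 with an unadjusted p under 0.05, against 1 higher (MRPS2) and 1 lower with the block. MRPS2, a small subunit protein, was at 0.38 (standard error 0.21, unadjusted p = 0.0187 with the block in limma). Of 15 genes of mTORC1 and the RPS6 kinases 7 were measured by 13 probe sets, with a median of -0.09 and 0 with an unadjusted p under 0.05, against 1 higher (TSC1) and 0 lower with the block. The brightest of the 3 probe sets of TSC1, an inhibitor of mTORC1, lay under the array median and gave 30.8, 20.0 and 18.7 with embryos and 17.3, 13.2 and 7.9 with oocytes, a log2 fold change of 0.87 (standard error 0.40, adjusted p = 1.00 from limma). The other TSC1 probe sets were at 0.07 and -0.43. The medians of these lists ran from -0.09 to -0.01, against 0.01 over all probe sets, and no list is called apart from the rest.

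**Figure D5:**
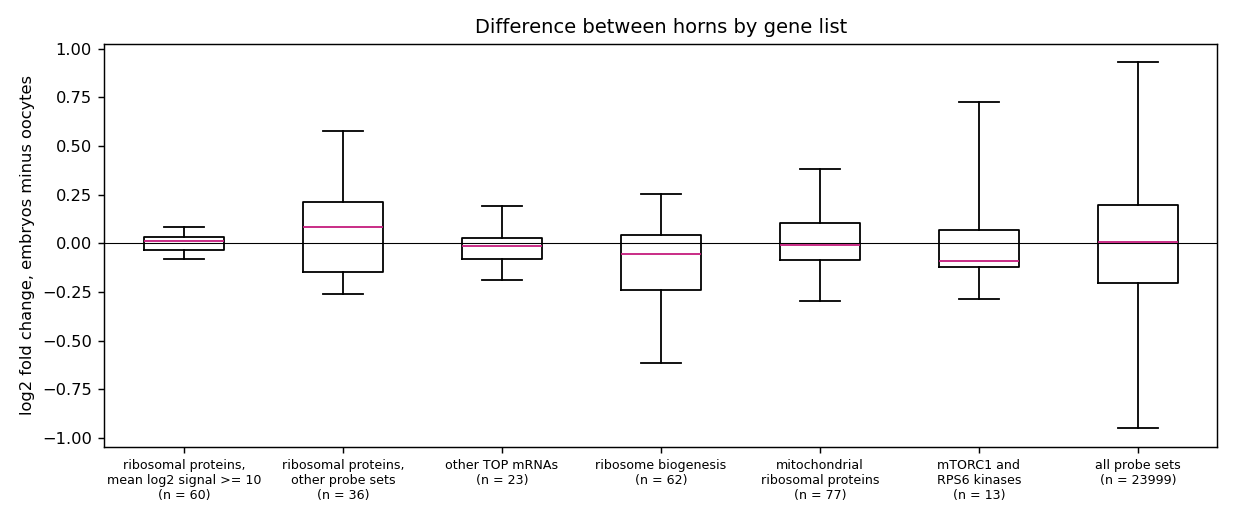
Log2 fold change of embryos over oocytes for the bright and the dim ribosomal protein probe sets, for the other lists and for all probe sets tested. Boxes show the quartiles with the median, and whiskers run from the 5th to the 95th percentile. The bright members form the narrowest box, with quartiles of -0.03 and 0.03.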

How the data were processed

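RNA of scrapings of the epithelial layer from 6 uterine horns of 3 sows was read on 6 arrays. The values are intensity signals that the authors made with MAS5 (version 5.1) and deposited on a linear scale. No Lowess step had been applied to these values. Signals under 0.1 were set to 0.1, put on the log2 scale and normalized by cyclic loess. A total of 124 control probe sets of 24123 were removed and 23999 tested with limma 3.58.1 in R 4.3.3 (group term, trended moderated variances, Benjamini-Hochberg adjustment at 0.05). Figures used matplotlib 3.10.9 in Python 3.11.15. Detection calls were not used here, and 3 arrays per group limit the precision.

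Arrays with the same replicate number were taken as the horns of 1 sow, as the labels describe 2 horns per sow and number both groups 1 to 3. Deviations from the group means correlated at 0.207, 0.173 and 0.100 between paired arrays. The sow as a block was an alternative, as the methods name no sow term. Others were the deposited values, quantile normalization, an equal median, an offset of 32 on every signal, leaving out signals under the array median, variances without a trend, 1 value per gene, and each array left out. Fits were also run on simulated arrays drawn independently, without a sow effect, so that run does not check the block or the pairing.

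All 96 member symbols were unchanged in the current pig gene table through their gene identifiers. A further 8 probe sets with several symbols were not members, and 11 members have names ending in a_at, s_at or x_at, which mark probes shared between transcripts. The members and the gene lists were chosen with earlier results of these data known. Probe sets of a gene are told apart in the text as bright or dim. Named with values were the brightest probe sets of chosen genes and paralogues, the 6 higher and 6 lower members above the array median with the smallest p, the 4 with the largest range over arrays, genes whose probe sets differ most, and up to 4 genes per list.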

Additional observations from a re-analysis of the deposited data

How the results depend on the processing

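The median log2 fold change of the 96 members stayed between -0.01 and 0.04 over all alternatives, and 0 members passed an adjusted p of 0.05 in any of them. The count of members at an unadjusted p under 0.05, 1 as reported, was 0 with only probe sets above the median signal, 0 without the variance trend and 2 with the replicate block. Leaving out 1 array at a time gave 0 to 2. It was 0 without the oocyte array of sow 1 and without the embryo array of sow 1 or of sow 3, and 2 without the oocyte array of sow 2 or of sow 3. The paired analysis with the replicate block called 0 members and 0 of all probe sets at an adjusted p of 0.05. It raised the unadjusted counts of the TOP, biogenesis, mitochondrial and mTORC1 lists, as given with them, and those of the whole array.

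Single probe sets near 0 changed sign. RPL5 was at -0.0056 with the values as deposited, and RPL13A at 0.0041 and the bright RPL17 probe set at 0.0071 with 32 added to each signal. With 1 array left out, some log2 fold changes lay on both sides of 0. They ran from -0.37 to 0.038 for RPL26, -0.080 to 0.015 for RPSA, -0.058 to 0.069 for RPL3, -0.028 to 0.041 for RPL5, -0.048 to 0.053 for RPL13A, and from -0.0017 to 0.74 for the dim RPLP1 probe set, -0.061 to 0.054 for the bright RPL17 probe set, -0.0089 to 0.060 for RPS19, -0.040 to 0.11 for RPS27L. The ranges were -0.30 to 0.32 for the dim RPS27 probe set, -0.013 to 0.17 for RPL22L1, -0.20 to 0.12 for RPLP2, -0.22 to 0.17 for the dim RPL24 probe set, -0.031 to 0.080 for RPLP0. The cause was not tested.

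A shift shared by all bright probe sets can be removed by cyclic loess, which adjusts by signal. An equal median on each array moves all probe sets alike and keeps such a shift relative to the rest. The bright median was 0.002 in the deposited values and 0.008 with an equal median, against 0.012 and 0.018 over all probe sets. It was 0.01 to 0.02 under the other normalizations. Of the dim members 17 lay at or under the array median, where a signal of a few units does not bound a change.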
